A study of Mus musculus with 21 samples.

Results

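The junctions described here joined a broken Sμ end to a 12 kb stretch of mouse chromosome 12, chr12:114516000-114527999 in the mm9 build, which lies between the switch regions Sγ2a and Sε. This stretch contains the place where 3 CTCF-binding elements (CBEs) were inserted in some of the cells. Its junctions were chosen by position alone and numbered 672 of the 40530 junctions in 21 libraries. All libraries came from CH12F3, a B cell lymphoma line of the mouse that can be induced to switch to IgA, after 72 h with anti-CD40, IL4 and TGF-β. In the NCdel group (6 libraries) the non-coding IgH allele has been deleted between Sμ and Sα, and every other group was built on these cells, so that only the productive allele is read. Iadel (6 libraries) also lacks Iα, which starts the germline transcript through Sα. i3CBEc (3 libraries) has the 3 CBEs in the orientation that the labels call convergent, and Iadel-i3CBEc (3 libraries) has them downstream of Cγ2a in cells without Iα. i3CBEc-3CBEdel (3 libraries) has the insertion and lacks the 3′CBEs, a group of CTCF sites beyond the last constant gene. The labels do not say how many clones stand for a genotype or whether the libraries of a group came from separate cultures, so p-values measure only the spread between libraries, which may be technical.

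In class switch recombination the enzyme AID deaminates cytosines in transcribed switch regions, often within the motif AGCT, and the resulting breaks in Sμ and in a downstream switch region are joined by end joining. CTCF bound at a CBE can stop cohesin as it extrudes a chromatin loop, so that DNA next to the site comes to lie at the base of the loop. The series asks, by its title, what loop extrusion contributes to class switching. In cells with the insertion, a junction in this stretch shows an Sμ end joined in the 12 kb around the ectopic CTCF sites. Such a join is outside the switch regions but need not lie next to the sites. CSR-HTGTS-seq reads such joins from a bait at the 5′ end of Sμ. The sequence joined to the bait is the prey, and a join is deletional where the orientation of the prey fits loss of the DNA in between and inversional where it is reversed. A direct join has neither an overlap nor extra bases, an overlap (microhomology) consists of bases that could come from either partner, and inserted bases match neither alignment.

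Positions were compared with the insertion as follows. Libraries with the insertion are shifted by 99 bases on its μ side, and words of 40 bases read in both kinds of library placed the start of that shift between 114521585 and 114526803. The insertion lies at an unknown point of this interval, here called the interval. Lower positions lead towards Sε and Sα and are called the α side, and higher positions lead towards Sγ2a and Sμ and are called the μ side. The ends of the interval are set by reads and are no feature of the DNA, since libraries without the insertion held only 7 junctions in the stretch. All 7 were from Iadel, 6 of them at 114521585, the α-side end, and 1 near the μ-side end. Positions of insertion libraries within the interval are as deposited and may be off by up to 99 bases.

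Some libraries were not independent of each other. The deposited table of Iadel library 4 held 4614 junctions, and 3075 of them had the read names of Iadel libraries 5 or 6 and were removed, which left 1539. The 3 libraries of Iadel-i3CBEc were read in the same sequencing run, numbered 490, as NCdel libraries 1 to 3 and Iadel libraries 4 to 6, and no other run held more than 1 group. Joins were taken as the same if prey position, strand, bait end and length of overlap or insert were equal. Of 538 different joins of Iadel-i3CBEc in the stretch, 37 occurred in 2 libraries and 2 in all 3, which together made up 81 junctions. A pair of its libraries shared 13 to 15 joins, or 7.69% to 8.88% of the joins of the smaller library. In the μ region, where other pairs could be compared, a pair of 1 group and 1 run shared a median of 5.34% of the smaller library, a pair of 1 run and different groups 0.926%, and a pair of 1 group in different runs 0.943%. Results are therefore given with and without joins found in several libraries of a group, an alternative added after the data were seen.

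The sequence of the stretch was read from the prey parts of the insertion libraries' reads, as the base read most often at each position. It covered 10326 of 12000 positions (86.0%), and 99.8% of read bases matched it. The windows with the most junctions are shown first, because they show what sequence the Sμ ends were joined to, with a window of Sε for comparison. They are the plus strand of mm9 coordinates, and capitals mark AGCT, which reads the same on both strands.
300 bases with the most Iadel-i3CBEc junctions, chr12:114521502-114521801: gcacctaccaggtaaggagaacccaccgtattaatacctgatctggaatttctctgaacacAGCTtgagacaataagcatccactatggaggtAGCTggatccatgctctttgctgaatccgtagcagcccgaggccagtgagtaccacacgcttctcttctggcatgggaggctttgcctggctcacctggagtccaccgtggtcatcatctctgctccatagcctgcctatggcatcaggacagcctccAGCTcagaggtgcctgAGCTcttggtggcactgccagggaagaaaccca
300 bases with the most on the α side, chr12:114520722-114521021: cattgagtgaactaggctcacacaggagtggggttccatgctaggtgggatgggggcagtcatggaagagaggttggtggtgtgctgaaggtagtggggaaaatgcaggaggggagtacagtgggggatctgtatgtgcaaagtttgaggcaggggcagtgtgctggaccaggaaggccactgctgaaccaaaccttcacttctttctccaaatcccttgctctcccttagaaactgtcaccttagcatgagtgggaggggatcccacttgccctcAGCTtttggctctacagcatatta
150 bases of Sε with the most, chr12:114514474-114514623: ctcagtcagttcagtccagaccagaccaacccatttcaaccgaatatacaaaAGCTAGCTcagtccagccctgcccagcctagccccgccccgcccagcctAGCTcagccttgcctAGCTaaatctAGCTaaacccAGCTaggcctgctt
The first window held 100 junctions of Iadel-i3CBEc, 9 of i3CBEc and 7 of i3CBEc-3CBEdel, with 4 AGCT motifs. The second held 68, 8 and 4 junctions with 1 motif. The Sε window, of 150 bases, held 21, 1 and 1 junctions with 6 motifs. Of the 6623 fully covered windows of 300 bases in the stretch, 79.2% held at least 1 AGCT and 4.21% held at least 4.

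A second set of sequences shows joins at positions used in 3 libraries. Each is printed as read, with 20 bases of Sμ bait, then the shared or inserted bases in capitals, then 20 bases of prey. The prey of all of them is the minus strand of mm9.
Iadel-i3CBEc libraries 1, 2 and 3, prey from 114519109: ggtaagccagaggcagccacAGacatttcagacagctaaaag
Iadel-i3CBEc libraries 1, 2 and 3, prey from 114520616: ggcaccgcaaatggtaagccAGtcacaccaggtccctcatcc
Iadel libraries 4 (2 junctions), 5 and 6, prey from 114521585: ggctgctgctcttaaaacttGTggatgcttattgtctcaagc
i3CBEc-3CBEdel library 1, prey from 114521595: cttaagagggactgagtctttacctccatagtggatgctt
Iadel-i3CBEc library 2, prey from 114521595: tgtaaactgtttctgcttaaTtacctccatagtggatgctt
Iadel-i3CBEc library 1, prey from 114521595: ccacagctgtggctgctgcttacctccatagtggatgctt
Iadel-i3CBEc library 1, prey from 114521595: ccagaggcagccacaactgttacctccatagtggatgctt
The first 3 were single joins that recurred over the libraries of a group. At 114521595, by contrast, 4 junctions from 3 libraries of 2 genotypes used 4 different bait ends. At 3 further positions, 114521746, 114521774 and 114521867, 3 libraries held 3 junctions with 2 different joins each. Of these 7 positions, 5 lie within 300 bases of each other, from 114521585 to 114521867.

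Junctions in the stretch were found mainly where the insertion was present and were most frequent where Iα was also deleted. NCdel held 0 in each of its 6 libraries, 0 of 11564 in all, which allows a share of up to 0.0259%. Iadel held 0, 0 and 0 in libraries 1 to 3 and 3, 3 and 1 in libraries 4 to 6, or 0.0736% ± 0.0898 of junctions (SD, n = 6). i3CBEc held 13, 17 and 6 junctions in its 3 libraries, which are 0.935%, 1.35% and 0.508% of their junctions. These 3 values all lay above the highest of NCdel and of Iadel, which was 0.195%. Iadel-i3CBEc held 238, 172 and 177 junctions, which are 11.2%, 10.9% and 12.2% (95% Wilson intervals 9.91 to 12.6, 9.47 to 12.5 and 10.6 to 14.0). i3CBEc-3CBEdel held 30, 0 and 12, which are 1.89%, 0% and 0.677%. The Iadel-i3CBEc libraries stood apart from all others, while those of i3CBEc-3CBEdel spread from the level of NCdel to above that of i3CBEc. Intervals and limits of this kind cover counting error only, since the tables hold no molecular identifiers and PCR copies are not independent.

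**Figure D1:**
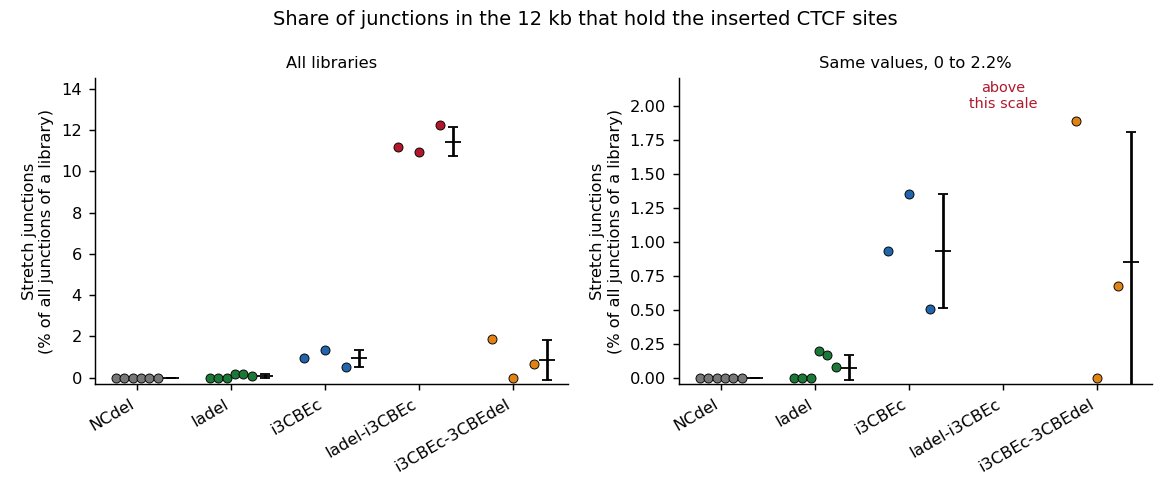
Percent of a library's junctions that lie in the stretch (vertical axis) for the 5 groups, with 1 point per library and the mean ± SD beside them; the right panel shows the same values on a scale from 0 to 2.2%. The 3 Iadel-i3CBEc libraries sit between 10.9% and 12.2%, all 6 NCdel libraries at 0%, and the 3 i3CBEc-3CBEdel libraries between 0% and 1.89%.

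By a two-sided exact permutation test, with Benjamini-Hochberg adjustment over 6 comparisons, 2 differences in this share passed an adjusted p of 0.05. i3CBEc was 0.932 percentage points above NCdel (its mean was 35.9-fold the limit of 3 junctions over the NCdel total, higher in 3 of 3 libraries, adjusted exact p = 0.0357). Iadel-i3CBEc was 11.4 percentage points above Iadel (11.4% ± 0.697, n = 3, 156-fold, adjusted exact p = 0.0357). Both had the smallest p that 3 against 6 libraries allow (0.0119), and both calls were lost without any 1 of their 9 libraries (adjusted exact p of 0.0536 to 0.107), as fewer arrangements remain. Within run 490 the difference between Iadel-i3CBEc and Iadel was 11.3 percentage points (exact p = 0.1, the smallest for 3 against 3), while the other groups with the insertion share no run with a control, so that run and genotype cannot be told apart there. Iadel-i3CBEc was 12.3-fold above i3CBEc without overlap (10.5 percentage points, exact permutation p = 0.1, adjusted 0.15). The size of this fold depends on the total it is taken of, since joins to α and ε made up 38.8% to 40.3% of junctions in i3CBEc and 2.49% to 3.57% in Iadel-i3CBEc. Per 100 junctions of the μ region the stretch held 33.5 ± 1.73 in Iadel-i3CBEc and 5.43 ± 2.25 in i3CBEc (n = 3 each), which is 6.16-fold, again without overlap (31.5 to 34.6 against 3.16 to 7.66). As percent of all junctions and without joins found in several libraries, i3CBEc minus NCdel, Iadel-i3CBEc minus Iadel and Iadel-i3CBEc minus i3CBEc were 0.943, 10.4 and 9.44 percentage points.

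The few junctions of Iadel came down to fewer still. Of the 7, 6 lay at 114521585 in libraries 4 to 6, with bait ends at 114664819, 114664825 and 114664826. Over the 40 bases before a common prey word, 5 of these reads had 0 differing bases (3 bases of 1 read were not called) and the other had 1. They thus carried nearly the same bait sequence up to the join, and the table lists them as 3 different joins with overlaps of 2 bases or inserts of 4 and 5 bases. Without this position Iadel exceeded NCdel by 0.0108 percentage points, and with it by 0.0736 (exact permutation p = 0.182, adjusted 0.218).

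Deleting the 3′CBEs in cells with the insertion gave no called difference from i3CBEc. The mean was 0.854% ± 0.955 against 0.932% ± 0.422 (n = 3 each), a difference of -0.0777 percentage points (exact permutation p = 1, where 0.1 is the smallest possible). Without 1 library at a time it ranged from -0.593 to 0.349, and the sign turned without i3CBEc library 2 (0.133) and without i3CBEc-3CBEdel library 2 (0.349) or 3 (0.0110). Library 2 of i3CBEc-3CBEdel, which held 0 of 1978 junctions in the stretch (up to 0.152% allowed), had the shortest prey alignments of all 21 libraries, 79.4 bases on average against 143 and 133 in libraries 1 and 3. Its α and ε joins made up 29.6% of junctions, against 52.6% and 49.0%. The part of prey length in the count of 0 was not tested. Libraries 1, 2 and 3 of i3CBEc-3CBEdel were each read in a run of their own (412, 426 and 438), and all of i3CBEc in run 389. Run therefore cannot be told apart from library within i3CBEc-3CBEdel, or from genotype in its comparison with i3CBEc.

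Most junctions lay in a band about 3 kb long that ran from the α side of the interval to just inside it. In Iadel-i3CBEc, 383 of 587 junctions (65.2%) were on the interval's α side, 186 were within it and 18 on its μ side. In i3CBEc the counts were 18, 15 and 3, and in i3CBEc-3CBEdel 24, 16 and 2. The band from 114519000 to 114521999 held 433 junctions of Iadel-i3CBEc (73.8%), 24 of i3CBEc (66.7%) and 31 of i3CBEc-3CBEdel (73.8%). The same band thus held most junctions in each genotype with the insertion. Since the interval spans 5217 bases, a junction inside it can be on either side of the inserted CBEs.

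Along the band the Iadel-i3CBEc junctions were densest from 114521500 to 114521999 and sparser at higher positions. The 5 bins of 500 bases with the most were those from 114519000 (60 junctions, 14 to 25 per library), 114520000 (54, 12 to 25), 114520500 (84, 16 to 37), 114521000 (70, 17 to 35) and 114521500 (122, 34 to 51). The next bin, from 114522000, held 15, and the one after that held 30. The drop was seen in the other genotypes too, with 10 junctions at 114521500 and 1 at 114522000 in i3CBEc, and 12 and 0 in i3CBEc-3CBEdel, of which 11 were from library 1. A run of 108 positions that no read covered, from 114522314 to 114522421, lies in the bin with 15 junctions, and its part in the drop was not tested. Within the fullest bin the 100 bases from 114521700 held 44 junctions of Iadel-i3CBEc, against 24, 29, 13 and 12 in its other parts of 100 bases.

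**Figure D2:**
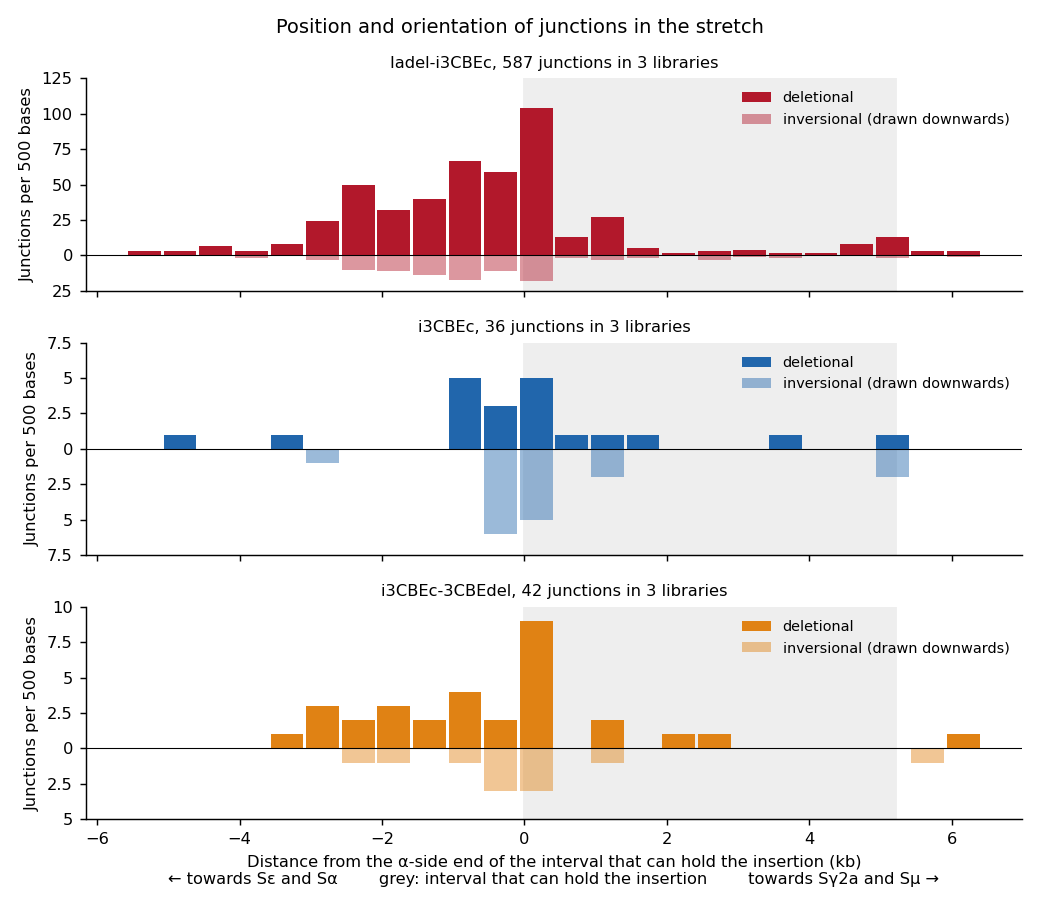
Junctions per 500 bases (vertical axis, deletional upwards and inversional downwards) against the distance in kb from the α-side end of the interval that can hold the insertion (grey), for the 3 genotypes with the insertion. In each panel the fullest bins lie at or just to the left of 0, and the tallest bin of Iadel-i3CBEc holds 104 deletional and 18 inversional junctions.

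The median position was 114520990.5, 114520965.5 and 114521090 in the 3 Iadel-i3CBEc libraries and 114521288, 114521563 and 114521612.5 in those of i3CBEc. The 2 libraries of i3CBEc-3CBEdel with junctions had medians at 114521392.5 and 114521012.5. All 3 medians of i3CBEc lay at higher positions than those of Iadel-i3CBEc. In the bins from 114519000 to 114520499, picked after the counts were seen, i3CBEc held 0 of its 36 junctions. Iadel-i3CBEc held 60, 43 and 54 there (10.2%, 7.33% and 9.20% of its stretch junctions). The other group with Iα and the insertion, i3CBEc-3CBEdel, held 3, 4 and 2 (7.14%, 9.52% and 4.76%). As a share of the library's junctions in the stretch, the α side made up 64.9% ± 4.89 in Iadel-i3CBEc and 46.7% ± 11.6 in i3CBEc (n = 3 each). The groups did not overlap, but the exact permutation p was 0.1, the smallest that 3 against 3 libraries allow (adjusted 0.2 over 6 measures). The difference of 18.2 percentage points was 6.09 when the 99-base shift was started at the α-side end of the interval. That end is set by Iadel reads, so the α side leaves out an unknown part of the junctions on that side of the insertion.

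Most joins in Iadel-i3CBEc were deletional, as were most joins to switch regions in the same libraries, while the 2 orientations were about equally frequent in i3CBEc. The deletional share was 82.4%, 77.3% and 88.1% in the 3 Iadel-i3CBEc libraries, 485 of 587 junctions in all. It was 46.2%, 70.6% and 33.3% in i3CBEc, from 13, 17 and 6 junctions. In i3CBEc-3CBEdel it was 80.0% of 30 and 58.3% of 12 junctions, and all 7 junctions of Iadel were deletional. The Iadel-i3CBEc libraries were all above those of i3CBEc, with 82.6% ± 5.41 against 50.03% ± 18.9 (n = 3 each, exact permutation p = 0.1, adjusted 0.2). Wilson intervals in i3CBEc were wide, 23.2 to 70.9, 46.9 to 86.7 and 9.68 to 70.0.

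In the same i3CBEc libraries, 79.9%, 81.0% and 82.3% of joins to the α and ε regions (114492000 to 114515999) were deletional, more than in the stretch in each library. In Iadel-i3CBEc 82.6% of 161 α and ε joins and 88.7% of 1750 μ joins were deletional. In NCdel, without the insertion, the shares were 97.4% of 4957 and 87.5% of 1678. Over the 8 libraries with the insertion and at least 5 junctions in the stretch, the deletional share was 67.0% ± 19.3 in the stretch, 81.6% ± 2.17 in α and ε, 82.5% ± 5.24 in μ and 48.0% ± 4.01 on other chromosomes. A two-sided exact sign-flip permutation test within libraries, adjusted over 15 comparisons, called the difference from μ (-15.5 percentage points, lower in 8 of 8, adjusted exact p = 0.0195). The call was lost without the first and last kb of the stretch (adjusted exact p = 0.0502) and without i3CBEc-3CBEdel (0.0781). Those from α and ε (-14.6, adjusted exact p = 0.0651) and from other chromosomes (19.0, adjusted exact p = 0.0820) did not pass. The former was called with repeats of a join collapsed (-14.9, adjusted exact p = 0.0439) and without Iadel-i3CBEc library 3 (-17.0, 0.0335). In Iadel-i3CBEc the 2 sides were alike in orientation, with 81.5% deletional of 383 junctions on the α side, 84.4% of 186 within the interval and 88.9% of 18 on the μ side.

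The stretch is not rich in AGCT, the motif of switch regions. Its covered sequence held 56 motifs, 0.542 per 100 bases, against 3.31 per 100 bases in the Sε block (114513000 to 114515999) and 2.17 in the Sα block (114497000 to 114503999). The windows printed above held 1 motif in 300 bases on the α side and 6 in 150 bases of Sε, but the window with the most junctions held 4 in 300 bases, a number that 4.21% of windows in the stretch reached. Per 100 bases of prey read, the 3 Iadel-i3CBEc libraries had 0.463, 0.557 and 0.497 motifs, those of i3CBEc 0.652, 0.614 and 0.963, and those of i3CBEc-3CBEdel 0.696 and 0.488. All 3 values of i3CBEc lay above those of Iadel-i3CBEc (0.743 ± 0.191 against 0.505 ± 0.0476, n = 3 each, exact permutation p = 0.1, adjusted 0.2).

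Against other junctions of the same 8 libraries, prey in the stretch had fewer motifs than prey in switch regions. The density was 0.616 ± 0.163 per 100 bases in the stretch (n = 8), 3.47 ± 0.270 in α and ε and 6.55 ± 0.939 in μ. Both differences were seen in 8 of 8 libraries (-2.85 and -5.94, adjusted exact sign-flip permutation p = 0.0195 each, from the smallest p possible, 0.00781). The places themselves differ in motifs, with 0.542 per 100 covered bases in the stretch, 3.31 in the Sε block and 2.17 in the Sα block. Prey density follows from that sequence, so these p-values say nothing about the joining. On other chromosomes it was 0.633 ± 0.0537, a difference of -0.0168 (adjusted exact sign-flip permutation p = 0.812). Both calls were lost without i3CBEc-3CBEdel (-2.95 and -6.42, adjusted exact p = 0.0781) and with deletional joins only (-3.02 and -6.19, 0.0625), where fewer libraries enter the test.

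Along the stretch, motif density and junctions went partly apart. The bins from 114519500 and 114520000 held 43 and 54 junctions of Iadel-i3CBEc with 0 and 0.2 motifs per 100 covered bases. The fullest bin, from 114521500, had 1 per 100 bases, and the bin from 114526000, at 1.15, held 8 junctions. Junctions nevertheless lay near single motifs more often than covered positions did. Of all covered positions, 12.3% lay within 10 bases of an AGCT, against 20.6% of 586 junctions of Iadel-i3CBEc (22.4%, 20.3% and 18.6% by library), 27.8% of 36 of i3CBEc and 19.0% of 42 of i3CBEc-3CBEdel. Each of the 8 libraries was above 12.3%, the lowest at 16.7%. These are descriptions with no test, since junctions of a library share positions and joins recur between libraries.

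**Figure D3:**
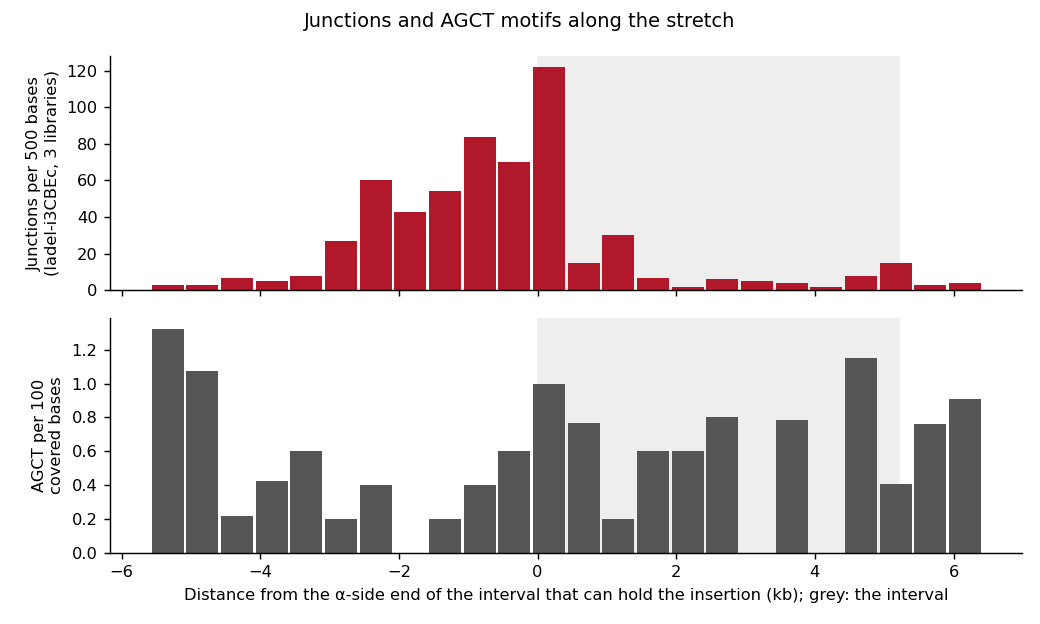
Junctions of the 3 Iadel-i3CBEc libraries per 500 bases (upper axis) and AGCT motifs per 100 covered bases (lower axis) against the distance in kb from the α-side end of the interval (grey). The bins from 3 kb below the interval up to its α-side end hold most junctions at 0 to 1 motif per 100 bases. The bins with the highest densities, from 114516000, 114526000 and 114516500 (1.32, 1.15 and 1.08), hold 3, 8 and 3 junctions. Of these, the bins from 114516000 and 114516500 have only 303 and 186 covered bases. The fullest bin, from 114521500, has 5 motifs, as many as the bin from 114526000.

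Most joins had no more than a few shared or inserted bases. In Iadel-i3CBEc, 145 of 587 joins (24.7%) were direct, 313 (53.3%) had an overlap and 129 (22.0%) had inserted bases. Overlaps of 1 base made up 22.1% of joins, of 2 bases 15.3%, of 3 bases 8.18% and of 4 to 10 bases 7.67%. Inserts of 1 base made up 9.88%, of 2 to 5 bases 10.2%, of 6 to 12 bases 0.511% and of 13 to 30 bases 1.36%. The authors' tables hold overlaps of up to 10 and inserts of up to 30 bases. In i3CBEc 10 of 36 joins were direct, 21 had an overlap and 5 an insert, and in i3CBEc-3CBEdel the counts were 12, 24 and 6 of 42.

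By library, inserts were found in 23.1%, 21.5% and 20.9% of the Iadel-i3CBEc joins. In i3CBEc the values were 23.1%, 11.8% and 0%, and in i3CBEc-3CBEdel 16.7% and 8.33%. The groups of Iadel-i3CBEc and i3CBEc overlapped (21.8% ± 1.14 against 11.6% ± 11.5, n = 3 each, exact permutation p = 0.3, adjusted 0.45). Direct joins (24.96% ± 2.67 against 32.2% ± 15.4, exact permutation p = 0.8, adjusted 0.9) and overlaps (53.2% ± 2.28 against 56.2% ± 7.63, exact permutation p = 0.9) also overlapped. Both differences turned sign without 1 library of i3CBEc, direct joins without library 3 (1.66 percentage points) and overlaps without library 2 (1.27).

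Compared within 8 libraries, joins in the stretch had fewer inserts than joins in μ, and more direct joins and overlaps. Inserts were found in 15.7% ± 8.34 of joins in the stretch and 32.9% ± 2.50 in μ (-17.3 percentage points, lower in 8 of 8). Direct joins made up 28.3% ± 9.12 and 19.3% ± 1.86 (8.97, higher in 8 of 8), and overlaps 56.0% ± 6.23 and 47.7% ± 2.08 (8.29, higher in 8 of 8). Each had an adjusted exact sign-flip permutation p of 0.0195. With an overlap counted from 2 bases, the difference in overlaps was 1.38 and was lost (adjusted exact p = 0.604), and with prey alignments of at least 50 bases that in direct joins was lost (8.62, 0.0586). All 3 calls were lost without i3CBEc-3CBEdel or with deletional joins only.

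Against α and ε joins the contrast was smaller, and these joins were not the same mixture in all genotypes. In Iadel-i3CBEc 145 of 161 lay in ε and 16 in α, while α held 1503 of 1519 in i3CBEc and 2262 of 2291 in i3CBEc-3CBEdel. Inserts were found in 24.8% ± 3.44 of α and ε joins, a difference of -9.16 percentage points for the stretch (lower in 7 of 8, adjusted exact sign-flip permutation p = 0.0335). That call was lost without joins found in several libraries (-8.20, adjusted exact p = 0.0732), with prey alignments of at least 50 bases (-5.00, 0.341), and without any 1 library other than i3CBEc library 1, with -10.01 to -6.94 percentage points and adjusted exact p of 0.0586 to 0.0670. In Iadel-i3CBEc the ε joins alone had inserts in 22.5%, 19.5% and 21.2% by library, beside 23.1%, 21.5% and 20.9% in the stretch, and 14 of the 16 α joins had one. These 16 had a median prey of only 27 bases, against 118 in the ε joins and 99 in the α joins of i3CBEc. Their placement was not tested. The stretch was thus above ε in 2 of these 3 libraries and below it in the third, by small margins. Direct joins (21.6% ± 2.94 in α and ε, a difference of 6.71, adjusted exact p = 0.0651) and overlaps (53.6% ± 3.28, 2.45, adjusted exact p = 0.459) did not pass, although the former was called without Iadel-i3CBEc library 1 (7.81, adjusted exact p = 0.0335). Against other chromosomes no measure of structure was called, with differences of 1.35 for direct joins (adjusted exact p = 0.787), -4.81 for overlaps (0.330) and 3.46 for inserts (0.568).

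**Figure D4:**
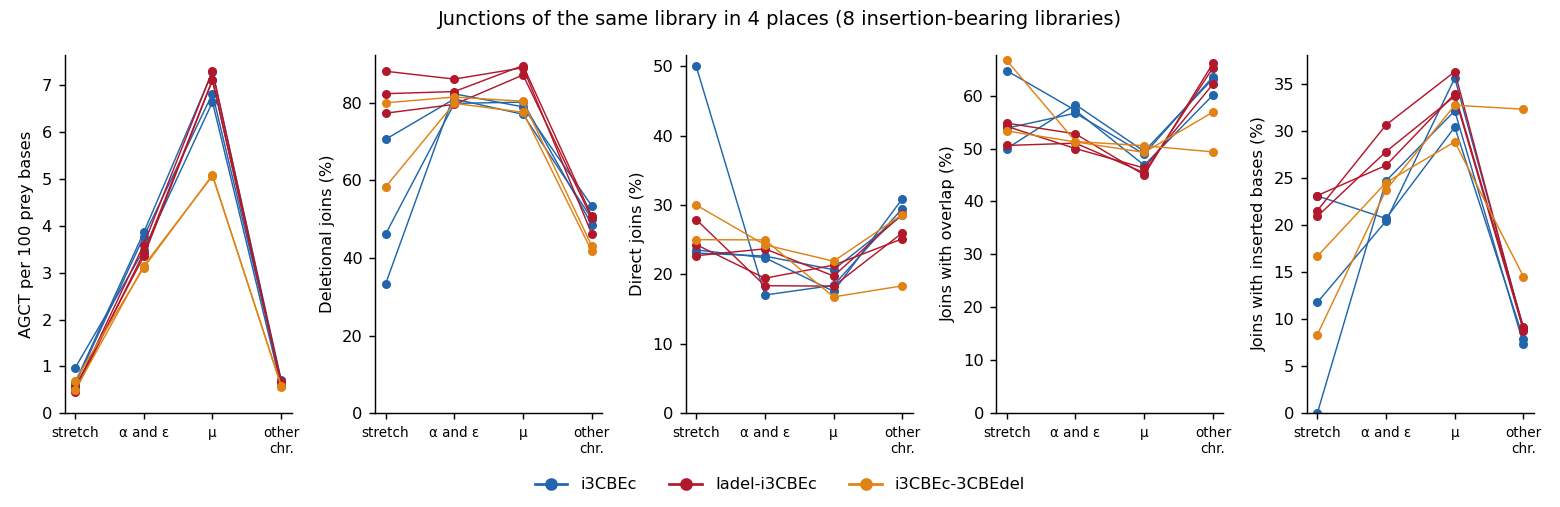
Values of 8 insertion-bearing libraries (1 line each, coloured by genotype) for junctions in the stretch, in the α and ε regions, in μ and on other chromosomes; the 5 panels show AGCT per 100 prey bases and the percent of deletional, direct, overlapping and insert-bearing joins. AGCT in the stretch lies at 0.463 to 0.963, the level of other chromosomes (0.570 to 0.705), while the deletional share spreads from 33.3% to 88.1%.

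The totals of overlaps and inserts hide a difference by length, which is given as values because it was chosen after they were seen. Inserts of 1 to 5 bases made up 21.0%, 20.9% and 18.1% of stretch joins in the 3 Iadel-i3CBEc libraries. In the same libraries they made up 19.7%, 24.5% and 22.2% of α and ε joins and 24.0%, 22.0% and 21.1% of μ joins, but 3.26%, 3.50% and 3.16% of joins to other chromosomes. Overlaps of 4 or more bases went the other way, with 7.14%, 8.14% and 7.91% in the stretch, 10.5%, 8.16% and 13.9% in α and ε, and 21.4%, 24.8% and 21.1% on other chromosomes. In length of insert and overlap the stretch joins of Iadel-i3CBEc thus lay near switch joins, and in AGCT near other chromosomes. i3CBEc had 23.1%, 11.8% and 0% of short inserts in the stretch against 3.24%, 1.70% and 2.00% on other chromosomes, from 13, 17 and 6 junctions. In i3CBEc-3CBEdel the 2 libraries differed. Library 1, with 30 stretch junctions, had 13.3% of short inserts against 2.97% on other chromosomes and 6.67% of long overlaps against 19.7%. Library 3, with 12, went the other way on both, with 8.33% against 12.7% and 16.7% against 8.86%.

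Long inserts are shown because their sequence can be read. Of 12 inserts of at least 6 bases in the stretch, all in groups with the insertion, 9 held GAGCT or GGGGT, repeat units of Sμ, searched in the orientation of the read. GAGCT contains an AGCT. The inserts are printed with these pentamers in capitals, and each is named by library and prey position.
Iadel-i3CBEc library 1, 114519926: gctGAGCTGAGCTGAGCTgagt
Iadel-i3CBEc library 1, 114520212: atGAGCTGAGCTGGGGTga
Iadel-i3CBEc library 1, 114521780: ctGGGGTtagctga
Iadel-i3CBEc library 1, 114523044: actgaggtGAGCTGAGCTgag
Iadel-i3CBEc library 2, 114519000: agctGAGCTgtgt
Iadel-i3CBEc library 3, 114522683: ctGAGCTgaacaagggt
Iadel-i3CBEc library 3, 114523252: ttGGGGTGAGCTGAGCTGGGGTgt
Iadel-i3CBEc library 3, 114527119: agctGAGCTagggtGAGCTGAGCTGAGCTg
i3CBEc-3CBEdel library 1, 114521553: atGGGGTgaactGGGGT
These 9 are all inserts of 13 or more bases in the stretch, and their prey positions spread from 114519000 to 114527119. In the same groups 47 of 130 inserts of at least 6 bases in α and ε joins (36.2%), 154 of 379 in μ joins (40.6%) and 64 of 314 in joins to other chromosomes (20.4%) held a pentamer. The median length was 17 bases in the stretch and on other chromosomes, 14 in α and ε and 11 in μ, so that the lists also differ in the room they give a pentamer.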

How the data were processed

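The libraries were made by CSR-HTGTS-seq from genomic DNA, per the labels. The authors deposited a table of junctions for each library, in which a line gives 1 junction, its mm9 position in bases and no normalised value. The submitters' processing notes name Bowtie2 and mm9, without a version. Further settings are not given in the sources used here. Here, junctions were taken by position after the corrections given above. The overlap or insert of a join is the authors' value, checked to equal the gap between the bait and prey alignments in every line. AGCT was counted in the aligned prey. A library held 1180 to 3513 junctions. Group values are means ± SD over libraries, compared by two-sided exact permutation tests with Benjamini-Hochberg adjustment, over 6 share comparisons, 6 measures between Iadel-i3CBEc and i3CBEc, and 15 within-library comparisons. Tests were tried on simulated data. The text names the 5 fullest bins of 500 bases and positions with 5 junctions in 1 library or junctions in 3 libraries. Over 24 features, same-numbered libraries of compared groups had correlations of -0.584 to 0.717. They matched each other best in 2 of 6 pairs of Iadel and NCdel, and in 0 or 1 of 3 pairs in the other comparisons. Numbers were therefore not used as pairs. The members, comparisons and alternatives were chosen with earlier results of these data known. Python 3.11.15, numpy 2.4.6, pandas 2.3.3 and scipy 1.17.1 were used.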

Additional observations from a re-analysis of the deposited data

Results flagged for a closer look

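The insertion went with a larger rise in the share of stretch junctions in Iα-deleted than in Iα-bearing cells. The rise was 11.4 percentage points from Iadel to Iadel-i3CBEc and 0.932 from NCdel to i3CBEc, a difference of 10.4 and a ratio of 12.2. Per 100 junctions of the μ region, whose scale does not hold the α and ε joins that Iα-deleted cells largely lack, the rises were 33.2 and 5.43, a difference of 27.8 and a ratio of 6.11. A two-sided permutation test of the difference, with a common effect estimated from these values and removed, gave p = 0.000142 on either scale. This is the smallest that its 7056 arrangements can give. The test was chosen after the data were seen, with groups that do not overlap, which all but fixes that result. No conclusion is drawn from it. Compared directly, Iadel-i3CBEc against i3CBEc had an exact permutation p of 0.1 (adjusted 0.15), the smallest for 3 against 3 libraries. The 3 libraries of i3CBEc were read in a run of their own, so that run and genotype cannot be told apart in this difference.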

How the results depend on the processing

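Of the called share differences, i3CBEc minus NCdel was 0.722 to 1.14 and Iadel-i3CBEc minus Iadel 10.97 to 11.6 percentage points without 1 library at a time, and the call was lost each time (adjusted exact permutation p of 0.0536 to 0.107). With the replicate number as a block they were 0.932 and 11.4 (exact sign-flip permutation p = 0.25, the smallest for 3 pairs). The labels do not tie same-numbered libraries together, and the block changed no other call. Within the run with several groups Iadel-i3CBEc minus Iadel was 11.3. i3CBEc-3CBEdel minus i3CBEc turned sign with deletional joins only (0.101) and ran from -0.593 to 0.349 without 1 library at a time.

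For the stretch against other places, calls were lost as follows. With prey of at least 50 bases: inserts against α and ε (-5.00), direct joins against μ (8.62). With overlaps of at least 2 bases: overlaps against μ (1.38), while against α and ε they turned sign (-0.543). With at least 10 junctions per library: inserts against α and ε (-6.94), while direct joins against other chromosomes turned sign (-1.39). Without i3CBEc-3CBEdel: AGCT, inserts against α and ε (-2.95, -8.35), and deletional joins, AGCT, direct joins, overlaps and inserts against μ (-17.3, -6.42, 9.24, 7.69, -16.9). With deletional joins only: AGCT and inserts against α and ε (-3.02, -6.04), AGCT, direct joins, overlaps and inserts against μ (-6.19, 4.28, 9.20, -13.5), while direct joins against other chromosomes turned sign (-2.003). Without joins found in several libraries: inserts against α and ε (-8.20). Without the outer kb: deletional joins against μ (-15.5). With repeats collapsed, deletional joins against α and ε were called (-14.9).

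Without 1 library at a time, against α and ε, inserts were -10.8 to -6.94, deletional joins -17.0 to -9.70 and direct joins 2.96 to 7.81. Against other chromosomes AGCT was -0.0751 to 0.0120 and direct joins -1.39 to 2.59. Iadel-i3CBEc minus i3CBEc was -11.8 to 1.66 for direct joins and -6.08 to 1.27 for overlaps. With 6 junctions in the smallest library, shares within i3CBEc are coarse.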

Other observations

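A few reads ran past the aligned prey. In the 672 stretch reads the median length of the part after the prey alignment was 18 bases, and 12 reads had more than 25. All 12 were from Iadel-i3CBEc, and 5 of them aligned up to a point between 114522049 and 114522056, from either strand. That point lies inside the interval, in the bin from 114522000 that held 15 Iadel-i3CBEc junctions. What the unaligned parts hold, and how this point relates to the insertion, was not tested.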
